A study of Mus musculus with 36 samples.

Results

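Adenylyl cyclases make cyclic AMP (cAMP) from ATP, and phosphodiesterases break down cAMP, cyclic GMP (cGMP) or both. The genes were taken from the deposited table as every protein-coding row named Adcy or Pde with a number (and, for Pde, a letter a to d). This gave 33 of 31554 rows: 10 adenylyl cyclase rows and 23 phosphodiesterase rows. They carry 32 symbols, because Pde4d has a second, shorter row. The rule uses gene names and no measured value.

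Messenger RNA was sequenced from 3 brain regions of adult male C57BL/6 mice without any transgene or deletion: the prefrontal cortex (PFC), the nucleus accumbens (NAc) and the periaqueductal grey (PAG). Each region was taken 2.5 months after surgery, which was either sham or spared nerve injury (SNI), in which branches of the sciatic nerve are cut and another is spared, a standard model of lasting neuropathic pain. The 6 groups, NAc sham, NAc SNI, PFC sham, PFC SNI, PAG sham and PAG SNI, had 6 libraries each. Libraries came from pooled RNA, and the labels name neither the mice behind a library nor whether the regions share mice, so p-values measure the spread between libraries.

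Cyclic AMP activates protein kinase A and other effectors. Membrane adenylyl cyclases are turned on by stimulatory G proteins and differ in their response to calcium: Adcy1 and Adcy8 are stimulated by calcium and calmodulin, and Adcy5 and Adcy6 are inhibited by calcium. In the striatum, to which the NAc belongs, medium spiny neurons couple dopamine and adenosine receptors to Adcy5 through the olfactory-type G protein subunit Gnal. These neurons are also known for Pde10a and Pde1b, phosphodiesterases that hydrolyse both cyclic nucleotides.

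The libraries held 27.6 to 64.9 M (mega) assigned reads, and the PAG libraries were shallower than most, at 27.6 to 44.1 M. The regions carried the markers of their labels. Of 10 medium spiny neuron markers, 9 were in the table, and they summed to between 1036 and 1651 RPKM (reads per kilobase of gene and per M reads) in NAc libraries and to between 32.8 and 74.0 in PFC libraries. The 10 excitatory cortical markers summed to between 642 and 795 in PFC and to between 11.1 and 242 in NAc. The 10 midbrain markers summed to between 214 and 408 in PAG and to at most 17.1 elsewhere. Some libraries stood apart in markers. PFC SNI 24 had a medium spiny sum of 74.0, against a PFC SNI median of 35.5. NAc sham 4 had a fibroblast and meningeal sum of 74.5 and an endothelial sum of 146.5, against NAc sham medians of 13.7 and 93.5. The choroid plexus and ependymal sum was 829 in PAG sham 27 and 389 in PAG SNI 31, against medians of 66.4 and 71.8. Without NAc sham 4, 13 members in place of 12 were called between NAc and PFC sham. Without PAG sham 27 the count for SNI in PAG was 9, and without PAG SNI 31 it was 10, in place of 9.

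The levels of the 33 rows ran from 0 RPKM (Pde6c) to 470 RPKM (Pde1b, in a NAc SNI library). Over all libraries 28 of 33 passed a mean of 0.5 RPKM, which was the minimum for testing. Adcy10, the soluble bicarbonate-responsive cyclase, and the retinal genes Pde6a, Pde6b and Pde6c did not pass in any region. Pde4c did not pass in NAc, in PAG or over all libraries, and Pde3a did not pass in PFC. Pde6c, the cone photoreceptor subunit, had 0 reads in 3 NAc libraries (1 sham, 2 SNI) and at most 17 reads in any other. The summed level of 7 photoreceptor and pineal markers was at most 1.29 RPKM in any library. Pde6d passed everywhere, at group means between 9.65 and 13.6 RPKM, but its product is a prenyl-binding delta subunit without catalytic activity.

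**Figure D1:**
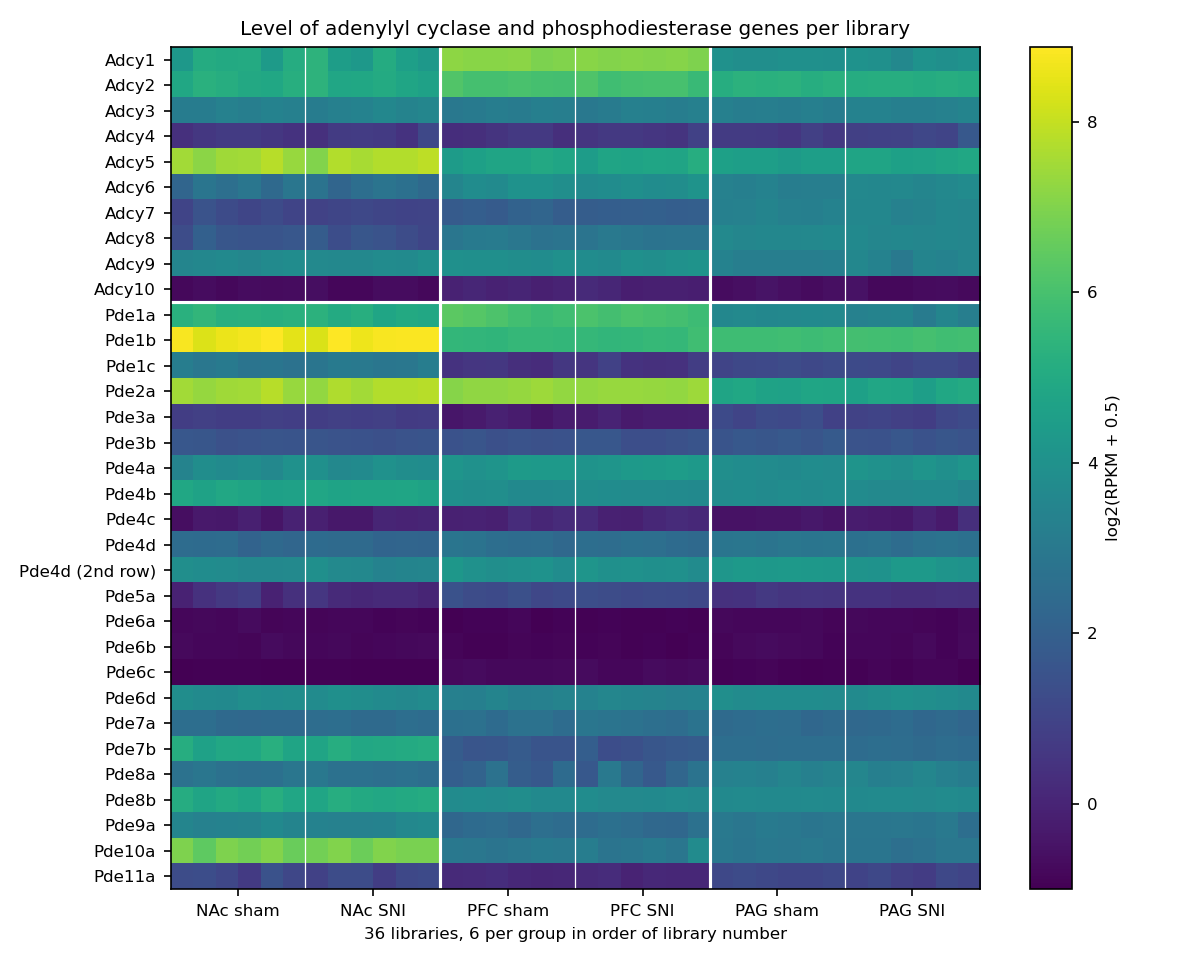
Level of each of the 33 rows, as log2(RPKM + 0.5) on a colour scale, in each of the 36 libraries, with 6 libraries per group and white lines between groups. Adcy5, Pde1b, Pde7b, Pde8b and Pde10a are brightest in the NAc columns, Adcy1 is brightest in the PFC columns, and Adcy10, Pde6a, Pde6b and Pde6c are dark throughout.

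The promoters of Adcy5, Pde10a and Pde1b, which were high in NAc, and of Adcy1, which was high in PFC, are shown as examples. Those of Pde2a, the most abundant phosphodiesterase message in PFC, are not shown. RefSeq promoters (GRCm38.p6) were matched for 24 member symbols. Each runs from upstream of an annotated start site into the first transcribed bases, and which start site these tissues use was not measured. The Pde10a start site shown lies 276373 bases into the GENCODE M21 gene, and another RefSeq start site lies farther in. Those shown for Adcy5, Adcy1 and Pde1b lie 13, 56 and 0 bases from the gene start. Capitals mark the GC box GGGCGG or its reverse complement CCGCCC, and would also mark TGACG or CGTCA, the core of the cAMP response element, of which these sequences have none.
Adcy5 promoter, chr16:35154614-35154913, plus strand: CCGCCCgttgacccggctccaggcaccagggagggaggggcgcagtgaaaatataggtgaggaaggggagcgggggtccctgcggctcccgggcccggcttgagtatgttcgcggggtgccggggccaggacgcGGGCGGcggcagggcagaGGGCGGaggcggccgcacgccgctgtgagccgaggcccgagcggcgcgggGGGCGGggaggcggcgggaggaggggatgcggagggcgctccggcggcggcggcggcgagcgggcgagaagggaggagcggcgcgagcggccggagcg
Pde10a promoter, chr17:8801495-8801794, plus strand: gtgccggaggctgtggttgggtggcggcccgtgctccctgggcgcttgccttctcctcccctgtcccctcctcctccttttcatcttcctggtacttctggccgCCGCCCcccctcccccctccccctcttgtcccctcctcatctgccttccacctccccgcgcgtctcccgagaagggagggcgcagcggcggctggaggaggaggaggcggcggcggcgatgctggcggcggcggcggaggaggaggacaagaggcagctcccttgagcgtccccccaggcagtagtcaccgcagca
Pde1b promoter, chr15:103502784-103503083, plus strand: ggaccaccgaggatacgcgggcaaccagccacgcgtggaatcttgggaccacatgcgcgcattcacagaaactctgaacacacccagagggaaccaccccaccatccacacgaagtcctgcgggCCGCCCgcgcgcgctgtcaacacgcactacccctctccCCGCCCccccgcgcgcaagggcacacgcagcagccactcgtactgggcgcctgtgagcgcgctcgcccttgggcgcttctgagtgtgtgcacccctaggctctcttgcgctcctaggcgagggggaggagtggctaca
Adcy1 promoter, chr11:7063183-7063482, plus strand: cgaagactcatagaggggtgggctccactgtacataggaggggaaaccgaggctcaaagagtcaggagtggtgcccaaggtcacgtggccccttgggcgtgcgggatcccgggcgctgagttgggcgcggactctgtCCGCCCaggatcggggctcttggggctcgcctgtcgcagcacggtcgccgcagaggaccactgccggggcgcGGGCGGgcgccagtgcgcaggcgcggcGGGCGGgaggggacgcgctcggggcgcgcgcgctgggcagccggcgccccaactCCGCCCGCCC

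The 4 windows were rich in G and C, at 79% for Adcy5, 74% for Adcy1, 71.3% for Pde10a and 67% for Pde1b. Counting overlapping matches, the GC box occurred 4 times in the Adcy5 window, 5 times in that of Adcy1, 2 times in that of Pde1b and 1 time in that of Pde10a. On either strand it was found for 14 of the 24 members, beside 38.2% of all 27025 genes with a promoter in the table (35.7% of 32851 promoters). A gene counted where any of its promoters matched, and several members had more than 1 promoter. The shares of genes given here were not matched for the number of promoters. TGACG was found for 8 of the 24 members, beside 23% of genes (20.8% of promoters). The full palindrome TGACGTCA, which contains TGACG, was found for 0 of 24 members and for 2.03% of genes. A TATAAA box was found for 2 of 24 members, Pde1a and Pde1b, the latter at a different start site, beside 15.7% of genes. These are letter matches in a window and no evidence of a bound factor.

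Adenylyl cyclase messages summed to 272 ± 19.6 RPKM in NAc sham and to 274 ± 8.91 in PFC sham libraries (SD, n = 6 each), and to 125 ± 1.78 in PAG sham (n = 6). The NAc and PFC ranges overlapped, and the highest PAG sham sum, 127, lay below the lowest of either. The composition of nearly equal sums was different. Adcy5 made up 65.3% ± 5.85 of the NAc sham sum but 9.54% of the PFC sham sum and 18.1% of the PAG sham sum. Adcy1 made up 49.5% ± 2.08 of the PFC sham sum, 10.5% of the NAc sum and 11.9% of the PAG sum. The calcium-inhibited pair Adcy5 and Adcy6 held 67.5% in NAc, 14.6% in PFC and 25.4% in PAG, while the calcium-stimulated pair Adcy1 and Adcy8 held 11.5%, 52.1% and 21.3%. In PAG the most abundant single cyclase was Adcy2, at 30.2%.

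Phosphodiesterase messages, over 21 rows (without Pde6d and the shorter Pde4d row), summed to 872 ± 94.7 RPKM in NAc sham, 347 ± 5.08 in PFC sham and 184 ± 1.72 in PAG sham (SD, n = 6 each). The 3 ranges did not overlap. Pde1b, a calcium and calmodulin-dependent enzyme, held 45.8% ± 1.42 of the sum in NAc, 30.4% in PAG and 13.2% in PFC. Pde2a, a cGMP-stimulated enzyme, was the most abundant in PFC, at 44.2% ± 3.25. Pde10a held 12.8% ± 0.954 in NAc. Enzymes specific for cAMP (Pde4, Pde7 and Pde8) held 36.1% in PAG, 18.2% in PFC and 13.4% in NAc. In bulk tissue, more cells of a type and more message per cell cannot be told apart.

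**Figure D2:**
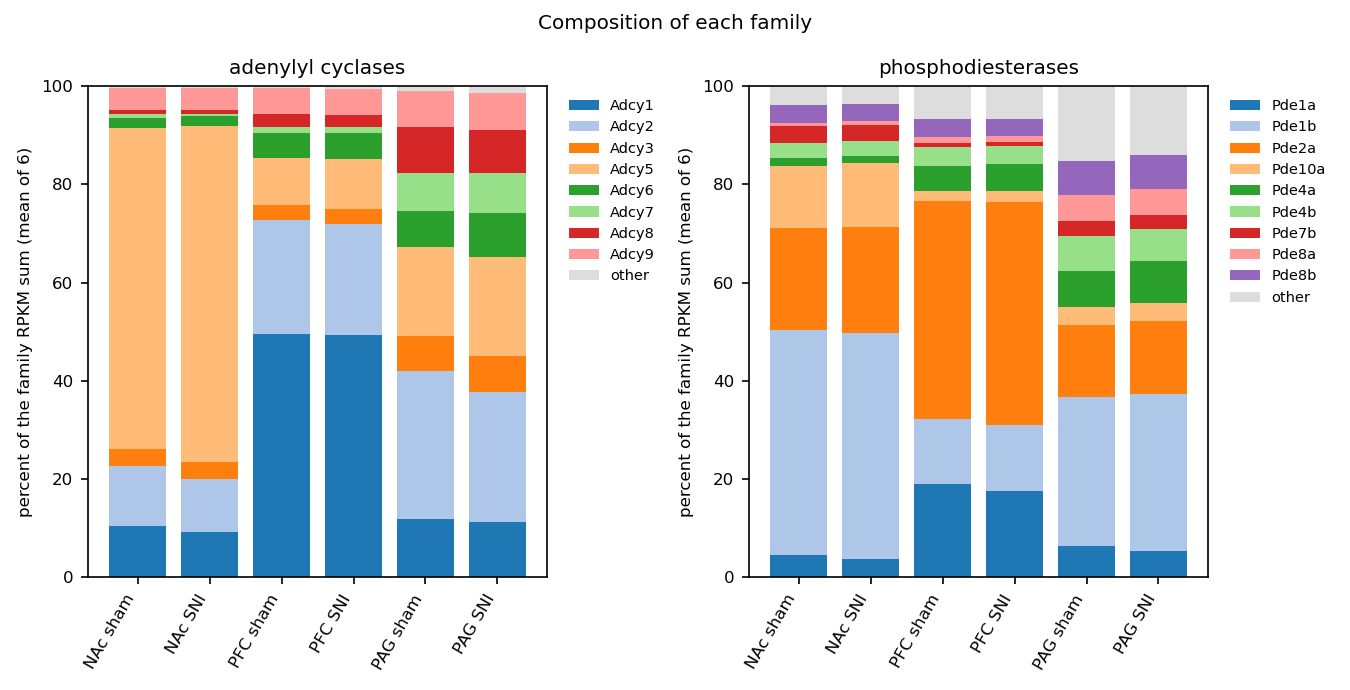
Stacked bars of each gene's mean percentage of its family's RPKM sum in the 6 groups (6 libraries each), for adenylyl cyclases (left) and for the 21 catalytic phosphodiesterase rows (right). Adcy5 fills 65.3% of the NAc sham bar and Adcy1 49.5% of the PFC sham bar, while Pde1b fills 45.8% in NAc sham and Pde2a 44.2% in PFC sham.

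The first comparison asked which members differ between regions in sham mice. Groups were compared with limma on log2(RPKM + 0.5), and a difference was called where the adjusted p was under 0.05 and levels differed by 2-fold or more. Between NAc and PFC 12 of 28 members (42.9%) were called, 9 higher and 3 lower in NAc, beside 6.85% of all 15639 genes tested (3.38% higher, 3.47% lower). Between NAc and PAG 10 of 28 (35.7%) were called, 8 higher and 2 lower in NAc, beside 13% of all genes (6.59% and 6.42%). Between PFC and PAG 6 of 28 (21.4%) were called, 3 in each direction, beside 15.1% of all genes (7.74% and 7.35%). Without the fold minimum 25, 20 and 22 members were called, beside 59%, 71% and 76.1% of genes. The median log2 difference over members was 0.13 (NAc against PFC), 0.01 (NAc against PAG) and -0.13 (PFC against PAG). These medians cover members that went both ways. Between NAc and PFC the median was -0.77 over 9 cyclases and 0.58 over 19 phosphodiesterase rows, between NAc and PAG -0.12 and 0.04, and between PFC and PAG 0.19 and -0.28.

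In sham mice 6 members exceeded both PFC and PAG in NAc by the call rule: Adcy5, Pde10a, Pde1b, Pde1c, Pde7b and Pde8b. The share of all genes that did so is not given here. Pde10a (chr17:8525372-8986648, plus strand, GRCm38), the striatal enzyme of dual specificity, measured 85.1, 116 and 131 RPKM (lowest, median, highest) in NAc sham. It measured 6.46, 7.10 and 7.98 in PFC sham and 6.71, 7.07 and 7.42 in PAG sham. All NAc libraries were far above all others, and PFC and PAG overlapped. Its log2 difference was 3.85 ± 0.11 (SE) from PFC (limma adjusted p = 4.2e-25) and 3.87 ± 0.11 from PAG (8.18e-26), the largest of the members in both. These are folds of 14.4 and 14.7 on the log2(RPKM + 0.5) scale.

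Adcy5 (chr16:35154877-35305738, plus strand, GRCm38) measured 143, 179 and 223 RPKM in NAc sham (lowest, median, highest), 20.7, 26.8 and 30.3 in PFC sham, and 20.1, 22.8 and 24 in PAG sham. Its groups followed the same order as those of Pde10a, with no overlap between NAc and the rest. The log2 difference was 2.75 ± 0.11 from PFC (limma adjusted p = 1.04e-20) and 2.94 ± 0.11 from PAG (5.67e-22). Pde1b had the highest level of all members, at 328, 403 and 465 RPKM in NAc sham, beside 43.1, 45.8 and 47.6 in PFC sham and 53.5, 55.8 and 57.1 in PAG sham. Its log2 difference was 3.10 ± 0.07 from PFC and 2.82 ± 0.07 from PAG (limma adjusted p = 1.95e-27 and 6.86e-27). Unlike Pde10a, the PAG sham libraries lay above all PFC sham libraries.

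Pde7b, a cAMP-specific enzyme, measured 25, 29.5 and 36.9 RPKM in NAc sham, 2.49, 2.58 and 3.18 in PFC sham and 5.22, 5.42 and 5.51 in PAG sham, so that no 2 regions overlapped. Its log2 difference was 3.25 ± 0.09 from PFC and 2.38 ± 0.09 from PAG (limma adjusted p = 1.35e-25 and 2.58e-22). Pde1c, the third calmodulin-dependent gene, was lower in level, at 7.12 ± 0.921 RPKM in NAc sham, 0.885 ± 0.138 in PFC sham and 1.76 ± 0.137 in PAG sham (SD, n = 6 each), with log2 differences of 2.46 and 1.75. Pde8b, a cAMP-specific enzyme of high affinity, had 30.6 ± 3.91, 13 ± 0.614 and 12.5 ± 0.185 RPKM, with smaller log2 differences of 1.20 and 1.25. On the log2(RPKM + 0.5) scale, Pde11a (1.01), Pde3a (1.10) and Pde9a (1.01) were higher in NAc than in PFC only just past the 2-fold minimum. Their mean levels in NAc sham and PFC sham were 1.78 and 0.622 RPKM (Pde11a), 1.26 and 0.322 (Pde3a), and 10.6 and 4.996 (Pde9a). For the low genes Pde11a and Pde3a this scale understates the fold. Pde3a was below the 0.5 RPKM minimum in PFC and passed the filter only through its levels in NAc and PAG.

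By the call rule, the members lower in NAc than in another region were adenylyl cyclases: Adcy1, Adcy6 and Adcy8 against PFC, and Adcy7 and Adcy8 against PAG. Adcy1, known for its role in synaptic plasticity and in cortical responses to injury, measured 18.6, 31.9 and 33.9 RPKM in NAc sham, 120, 138 and 147 in PFC sham, and 14.3, 14.8 and 15.6 in PAG sham. The log2 difference was -2.28 ± 0.14 between NAc and PFC and 3.15 ± 0.14 between PFC and PAG (limma adjusted p = 1.09e-15 and 4.95e-20). By the call rule it was the only member higher in PFC than in both other regions. Among the members tested, Adcy2, Pde1a and Pde5a were also highest in PFC, with no overlap with the next region, but did not pass the 2-fold minimum against both. Adcy8 was lower in NAc (2.63 ± 0.527 RPKM) than in PFC (7.04 ± 0.747) and PAG (11.7 ± 0.468), with log2 differences of -1.28 and -1.97. Adcy6 differed from PFC by -1.20 on the log2 scale.

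Adcy7, a cyclase outside both calcium classes, was highest in PAG. It measured 9.18, 9.57 and 10.6 RPKM in PAG sham, 3.05, 3.30 and 4.16 in PFC sham and 1.54, 1.74 and 2.40 in NAc sham, with no overlap between regions. The log2 difference was -2.15 ± 0.07 for NAc against PAG and -1.37 ± 0.07 for PFC against PAG (limma adjusted p = 3.1e-24 and 8.86e-19). It was the only member higher in PAG than in both other regions by the call rule. Pde3a, a cGMP-inhibited enzyme, and Pde8a were higher in PAG than in PFC (log2 differences -1.45 and -1.23 for PFC against PAG). The mean of Pde3a was 0.322 RPKM in PFC sham and 1.76 in PAG sham. It passed the filter over all 36 libraries through its levels in NAc and PAG, and was below the minimum in PFC.

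By the call rule, a pair of members were lower in PAG than in both forebrain regions, Pde2a and Pde1a. Adcy1 was also lower in PAG sham than in NAc sham without overlap (values above), by less than the 2-fold minimum. Pde2a measured 158, 180 and 222 RPKM in NAc sham, 135, 154 and 170 in PFC sham, and 24.3, 26.7 and 28.8 in PAG sham. The forebrain regions overlapped, and PAG lay below both, with log2 differences of 2.74 ± 0.08 for NAc and 2.50 ± 0.08 for PFC (limma adjusted p = 2.11e-25 and 2.65e-24). The identifier of this row belongs in GENCODE M21 to a longer model that overlaps Pde2a and Arap1 on the same strand, so reads of these genes may not be fully separated. Pde1a measured 35.8, 37.8 and 44.5 RPKM in NAc sham, 52.8, 63.8 and 84.1 in PFC sham, and 11.3, 11.9 and 12.3 in PAG sham. The 3 regions did not overlap in sham libraries, and the log2 difference between PFC and PAG was 2.41 ± 0.09 (limma adjusted p = 2.14e-22). The 3 calmodulin-dependent genes thus had different patterns: Pde1a was highest in PFC, and Pde1b and Pde1c were highest in NAc.

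In sham mice 16 of the 28 members were called in at least 1 of the 3 comparisons and 12 in none. The matching share of all genes is not given here. Among the cyclases called in none, Adcy9, a calcineurin-inhibited form, had 11.9 ± 0.984 RPKM in NAc sham, 14.4 ± 0.638 in PFC sham and 9.09 ± 0.441 in PAG sham (SD, n = 6 each). Adcy3 was nearly even, at 9.07 ± 0.604, 8.22 ± 0.682 and 8.79 ± 0.395, and Adcy2, stimulated by G protein beta-gamma subunits, had 33.1 ± 3.89, 63.9 ± 4.62 and 37.6 ± 1.93. Adcy4 was low in every region, at 0.995, 0.882 and 1.12 RPKM. The Pde4 genes, the targets of rolipram, were called in no sham comparison, and Pde4c was not tested. Pde4a had 12.9 ± 1.80, 18.1 ± 1.93 and 13.3 ± 0.618 RPKM, Pde4b 26.5 ± 2.44, 13.4 ± 0.993 and 13.2 ± 0.414, and Pde4d 4.67 ± 0.491, 5.55 ± 0.746 and 6.82 ± 0.200. Pde4b was not even: its NAc sham libraries, at 24.1 to 29.5 RPKM, lay above all PFC and PAG sham libraries. Those were at 14.7 RPKM or less, a difference below the 2-fold minimum on the log2(RPKM + 0.5) scale. Pde3b had 2.48, 2.33 and 2.70 RPKM, and Pde7a 4.91, 5.67 and 5.01. Pde5a, a cGMP-specific enzyme and the target of sildenafil, was not even across regions: it measured 0.460, 0.805 and 1.295 RPKM (lowest, median, highest) in NAc sham, 1.66, 1.89 and 2.30 in PFC sham and 0.829, 0.938 and 1.08 in PAG sham. All PFC sham libraries were above all others. Its log2 difference was -0.93 ± 0.10 for NAc against PFC (limma adjusted p = 2.26e-09), just under the 2-fold minimum on the log2(RPKM + 0.5) scale. It was -1.23 with a pseudocount of 0.1 and -1.33 with voom, both called, and -1.02 and called without NAc sham 4.

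**Figure D3:**
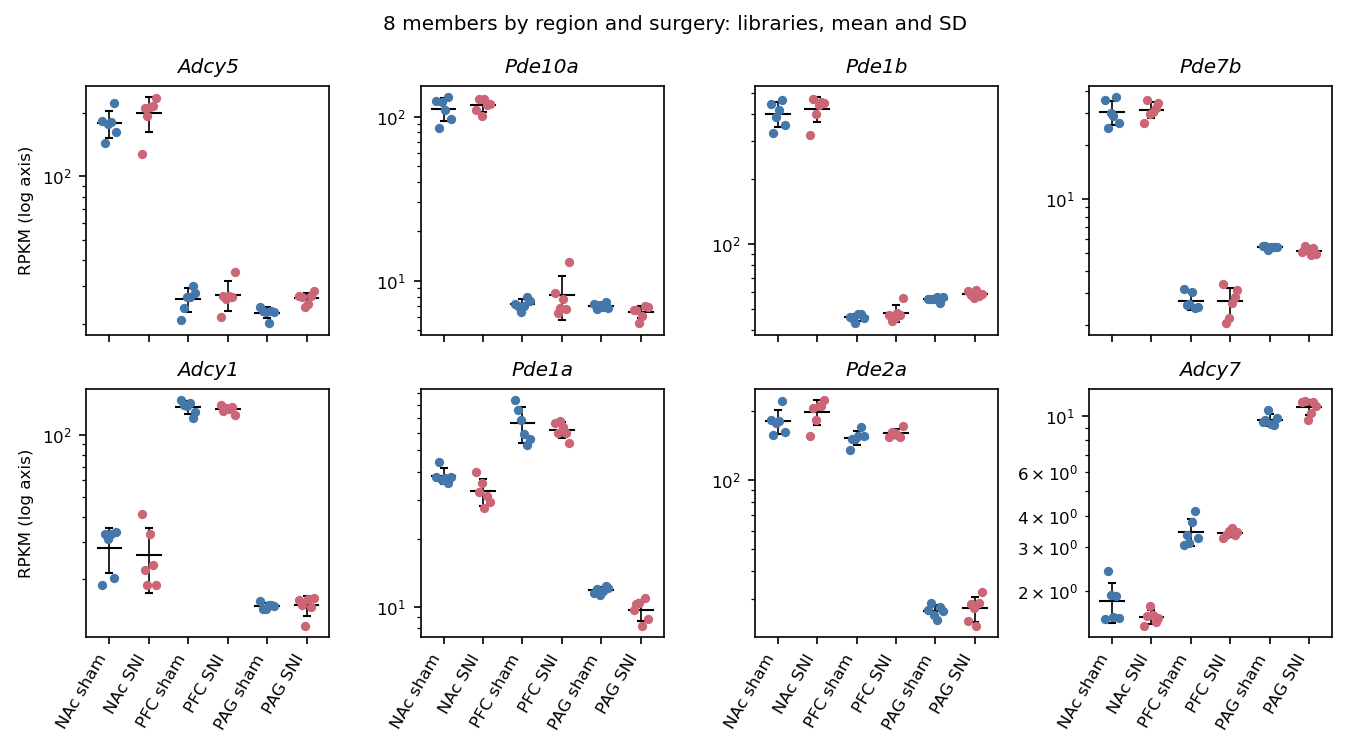
RPKM of 8 members on log axes in the 6 groups; points are libraries (blue sham, red SNI), the long black line is the mean and the bar is the SD (n = 6). The NAc points of Adcy5, Pde10a, Pde1b and Pde7b lie above all others, Adcy1 is highest in PFC, Pde2a and Pde1a are lowest in PAG, and Adcy7 is highest in PAG.

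The same regions were compared in SNI mice. Of 28 members 12 were called between NAc and PFC (7 higher and 5 lower in NAc, beside 7%, 3.29% and 3.72% of all genes), 12 between NAc and PAG (9 and 3, beside 12.9%, 5.84% and 7.07%) and 6 between PFC and PAG (3 and 3, beside 13.2%, 5.9% and 7.28%). Without the fold minimum the counts were 26, 22 and 23, beside 55.6%, 69.2% and 70.8% of genes. Between NAc and PFC 9 members were called in both surgery groups, which is 75.0% of each list. Between NAc and PAG 10 were called in both, 100% of the sham list and 83.3% of the SNI list, and between PFC and PAG the same 6 were called. All shared calls had the same direction. The overlap of calls over all genes is not given here, so these percentages do not set members apart from other genes. Pde3a, Pde9a and Pde11a were called between NAc and PFC in sham mice only and Adcy2, Pde4b and Pde5a in SNI mice only. Between NAc and PAG, Adcy6 and Pde4b were called in SNI mice only. The differences in surgery effect between regions, which test this directly, were called for 0 of 28 members in each pair of regions.

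Other genes of cyclic nucleotide signalling were taken from 7 lists. Of 9 G protein genes that act on adenylyl cyclase, 2 were higher and 0 lower in NAc than in PFC (sham, same call rule, by which 3.38% of all genes were higher and 3.47% lower). They were Gnal, the stimulatory subunit coupled to Adcy5 (180 ± 22.2 RPKM against 31.5 ± 1.40, log2 difference 2.49), and Gng7, its gamma partner (310 ± 38.6 against 27.6 ± 2.53, log2 difference 3.46). Both were also higher than in PAG, by 1.91 and 4.91 on the log2 scale. Among 12 other cAMP effectors tested, 2 were higher in NAc than in PFC: Ppp1r1b (DARPP-32, the dopamine and cAMP-regulated phosphatase inhibitor), at 222 ± 32.2 RPKM against 9.02 ± 1.12, and Arpp21, another kinase substrate (log2 differences 4.54 and 1.82). Of 9 protein kinase A subunits and inhibitors 1 was higher, the regulatory subunit Prkar2b (1.72), and of 10 anchoring proteins 2 were, Akap5 (1.68) and Akap9 (1.26). Of 6 guanylyl cyclase genes tested, 1 was higher (Gucy1a3, a soluble subunit, 1.22) and 1 lower (Gucy2g, -1.65). Of 5 cGMP effectors and nitric oxide synthases, and of 2 further phosphodiesterase-related genes, 0 were called.

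The second comparison asked what SNI changed within a region. In NAc 0 of 28 members were called in limma at an adjusted p under 0.05, beside 0% of 15264 genes, and 1 member and 660 genes had an unadjusted p under 0.05. With voom on recovered reads the counts were 0 called, with 1 member and 623 genes unadjusted. Adcy5 measured 143, 179 and 223 RPKM in sham and 127, 212 and 235 in SNI libraries. Pde10a measured 85.1, 116 and 131 in sham and 101, 118 and 128 in SNI. The ranges overlapped for both. For Adcy5, 5 SNI libraries lay above the sham median and 1 below it, and for Pde10a 4 and 2. The log2 fold change was 0.15 (95% interval -0.16 to 0.45) for Adcy5 and 0.08 (-0.14 to 0.30) for Pde10a. The 4 members with the smallest p were Pde1a, Adcy3, Adcy7 and the shorter Pde4d row. Pde1a measured 35.8, 37.8 and 44.5 RPKM in sham and 27.8, 31.9 and 40.3 in SNI, with overlap, and a log2 fold change of -0.23 (-0.41 to -0.05, limma adjusted p = 0.780). The other 3 had log2 fold changes of 0.13, -0.15 and -0.14.

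In PFC 0 of 28 members were called, beside 0% of 15192 genes, with 0 members and 220 genes at an unadjusted p under 0.05 (voom: 0 called, 0 members and 205 genes unadjusted). Member log2 fold changes lay between -0.08 and 0.17. Sham and SNI libraries overlapped for every member tested in NAc and in PFC, where 0.131% and 0.0856% of genes had no overlap. The 4 of smallest p were Adcy4, Pde6d, Pde7a and Pde2a, and the value for Adcy4 was 0.17 (limma adjusted p = 0.99997). Library PFC SNI 24 stood above its group in the genes of medium spiny neurons. Pde10a measured 13 RPKM there and 6.41 to 8.49 in the other PFC SNI libraries, Adcy5 measured 35.3 against a PFC SNI median of 26.9, and Pde1b 56.5 against 44.3 to 48.2. Its medium spiny marker score, the mean log2 level of the markers relative to all PFC libraries, was 0.94. The score was below 0 in every other PFC library, sham or SNI. Without this library the log2 fold change was 0.01 for Pde10a, -0.01 for Adcy5 and 0.02 for Pde1b. It was 0.14, 0.06 and 0.07 with it.

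Pde8a, a cAMP-specific phosphodiesterase of high affinity, varied widely between PFC libraries within each surgery group. It measured 2.82, 3.63 and 6.15 RPKM (lowest, median, highest) in PFC sham and 2.77, 4.25 and 7.42 in PFC SNI, beside 9.41, 9.78 and 10.8 in PAG sham. The sums of 10 oligodendrocyte and myelin markers ranged between 253 and 936 RPKM in PFC sham and between 235 and 1127 in PFC SNI. In the 3 libraries of highest myelin score (sham 15, SNI 20 and SNI 24, at 0.85, 1.13 and 0.90) Pde8a measured 6.15, 7.42 and 6.33. In the lowest (SNI 19 at -0.95 and sham 17 at -0.94) it measured 2.77 and 2.82. In a limma fit with surgery in the model, added after the data were seen, Pde8a had a coefficient of 0.60 ± 0.04 per unit of score (adjusted p = 1.11e-06). It was the only member called of 28, beside 2.07% of 15192 genes. It was called in each of the 12 fits without 1 library, with coefficients of 0.57 to 0.62, and at 0.59 (limma adjusted p = 6.96e-05) without SNI 19 and SNI 20, which were farthest from the median score. Pde1c had the next smallest p, with a coefficient of 0.21 (limma adjusted p = 0.0830).

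In PAG 9 of 28 members were called (32.1%), 6 higher and 3 lower in SNI, beside 35.2% of 15592 genes, 21.5% higher and 13.7% lower. The share of members was thus near that of all genes. Adenylyl cyclases made up most of the calls: 5 of 9 tested were higher and 1 lower, while of 19 phosphodiesterase rows 1 was higher and 2 lower. All 9 calls held in each of the 12 fits without 1 library. The sham and SNI libraries did not overlap for 5 members, Adcy2, Adcy4, Adcy6, Pde1a and Pde4d, beside 16.9% of all genes.

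Adcy6, a widely expressed calcium-inhibited cyclase, measured 8.52, 9.06 and 9.88 RPKM in PAG sham and 10.7, 11.7 and 13.2 in PAG SNI. Every SNI library was above every sham library, and the log2 fold change was 0.34 ± 0.05 (SE; limma adjusted p = 0.000216). With the GC trend of each library removed it was 0.21 and still called. Adcy4 was near the filter minimum, at 0.980, 1.11 and 1.31 RPKM in sham and 1.34, 1.48 and 2.77 in SNI, with a log2 fold change of 0.40 ± 0.12 (limma adjusted p = 0.0211), which was 0.33 and no longer called after the GC correction (limma adjusted p = 0.0753). Pde4a, a cAMP-specific enzyme, measured 12.5, 13.2 and 14.4 RPKM in sham and 14.2, 15.9 and 17.1 in SNI, with overlap. Its log2 fold change was 0.24 ± 0.05 (limma adjusted p = 0.00220), and 0.02 after the correction (0.766).

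Adcy5 measured 20.1, 22.8 and 24 RPKM in PAG sham and 23.9, 26.8 and 28.6 in PAG SNI, a log2 fold change of 0.22 ± 0.05 (limma adjusted p = 0.00396) that turned to -0.11 (0.0129) after the GC correction. Adcy7 (0.16) and Adcy3 (0.14), the latter known from olfactory signalling and neuronal cilia, were higher by small amounts, and neither was called after the correction (0.14 and -0.06). Among the lower members, Pde1a measured 11.3, 11.9 and 12.3 RPKM in sham and 8.18, 9.92 and 10.9 in SNI, with a log2 fold change of -0.28 ± 0.06 (limma adjusted p = 0.00243), and -0.14 (0.102) after the correction. Pde4d, another cAMP-specific enzyme, measured 6.54, 6.80 and 7.13 in sham and 5.20, 5.90 and 6.24 in SNI (-0.21 ± 0.04, limma adjusted p = 0.00184, and -0.16 and called after the correction). Adcy2 measured 35.4, 37.8 and 39.8 in sham and 33.3, 34.7 and 35.2 in SNI (-0.13 ± 0.03, limma adjusted p = 0.0135, and -0.14 and called after it).

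A technical measure moved with the PAG groups. The slope of each library's log2 values on gene GC content, per 10 percentage points, was -0.22 to -0.02 in PAG sham and 0.04 to 0.22 in PAG SNI libraries, without overlap, so the GC slope and surgery cannot be told apart in this region. Members followed the trend of all genes. Across 27 members with a GC value the log2 fold change and GC content had a Pearson r of 0.74, beside 0.65 across 15426 genes (genes within the same libraries, not independent replicates). In NAc r was 0.37 for members and 0.42 for all genes, and in PFC it was 0.20 and 0.08. Members rich in GC such as Adcy5 (59.5%) and Pde4a (57.2%) were at the upper end, and Pde1a (41.2%) was at the lower end. After a loess correction for GC 4 members were called, Adcy6 higher and Adcy2, Adcy5 and Pde4d lower. With the GC slope as a covariate, or with each gene's own slope coefficient removed, 0 members were called. Quantile scaling gave 4 higher and 10 lower in place of 6 and 3. The shares of all genes called under these alternatives are not given here, so the counts do not set members apart from other genes.

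**Figure D4:**
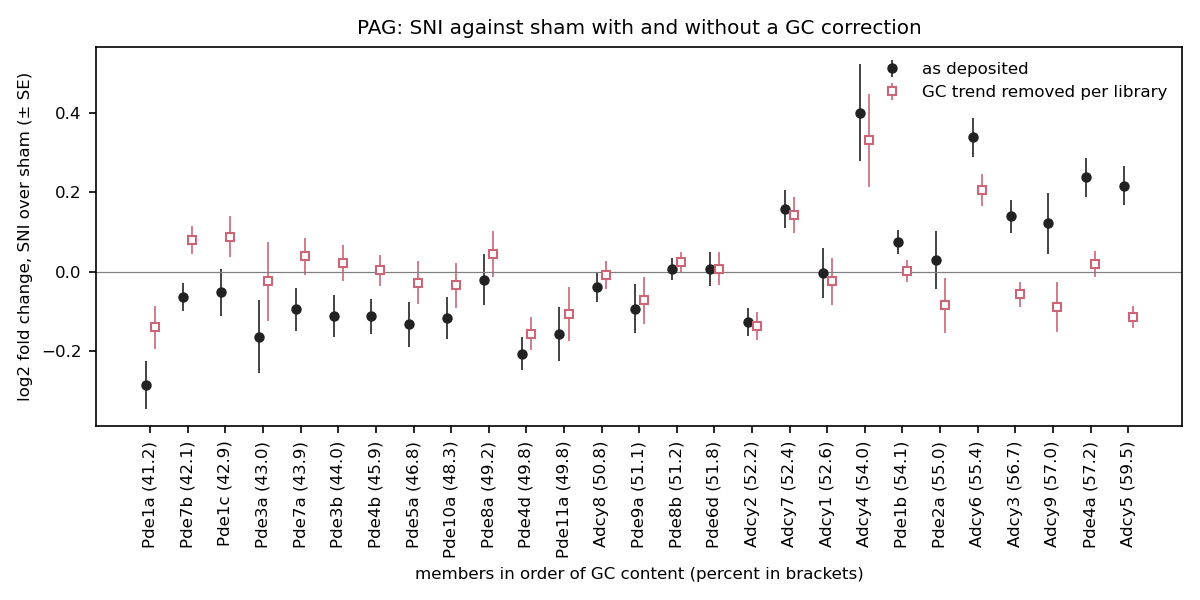
SNI over sham log2 fold change (± SE, 6 against 6 PAG libraries) of the 27 tested members with a GC value, in order of GC content of the transcript, from the deposited values (filled) and after each library's GC trend was removed (open). Filled points range from -0.28 (Pde1a) to 0.40 (Adcy4). That of Adcy5, at the end of highest GC, lies at 0.22 and its open point at -0.11.

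Of the other cyclic nucleotide genes in PAG, 3 of 9 G protein genes were called higher in SNI (Gnaz 0.28, Gnai2 0.23 and Gng7 0.18) and 2 lower (Gnal -0.14 and Gnb1 -0.11). Of 9 protein kinase A genes 2 were higher (the inhibitor Pkig 0.53 and the regulatory subunit Prkar1b 0.20) and 1 lower (Prkar2b -0.13). Of 12 other effectors 4 were higher, the cAMP-activated exchange factor Rapgef3 (0.58) and the CREB coactivators Crtc3 (0.44), Crtc1 (0.34) and Crtc2 (0.18). Of 10 anchoring proteins 1 was higher and 4 lower, of 6 guanylyl cyclases 0 and 2, and of 6 cGMP effectors 1 and 0. These shares stand beside the same 21.5% and 13.7% of all genes and carry the same GC difference. In NAc and in PFC 0 genes of the 7 lists were called.

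The third comparison asked whether the SNI effect differs between regions, from a single model of 36 libraries. It was called for 0 of 28 members between NAc and PFC, between NAc and PAG and between PFC and PAG (limma), beside 0% of 15639 genes each time. At an unadjusted p under 0.05 there were 0, 2 and 3 members and 178, 1405 and 2779 genes, and with voom the counts were 0 called and 0, 2 and 3 members. With array weights, which give less weight to variable libraries, 0, 0 and 3 members were called. The 3 between PFC and PAG stood beside 23.7% of all genes, and were Adcy6 (-0.35, limma adjusted p = 0.0259), Pde1a (0.33, 0.0178) and Pde4d (0.21, 0.0452), as the PFC effect minus the PAG effect on the log2 scale. Whether SNI changed members differently in PFC and PAG thus depended on the weights, and no difference between NAc and PAG was called under either.

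NAc libraries differed in cortical markers, and members were set against that difference. The cortical marker score (mean log2 level of 10 excitatory cortical markers, NAc mean 0) ran from -1.33 to 0.85 in sham and from -1.33 to 1.16 in SNI libraries, so both surgery groups covered the range. With surgery in the model, 7 of 28 members moved with the score (limma), 5 up and 2 down, beside 5.31% of 15264 genes (3.85% up, 1.46% down). Adcy1 had the largest coefficient, 0.43 ± 0.04 per unit of score (adjusted p = 7.86e-05). It measured 18.6 and 20.3 RPKM in the 2 sham libraries of lowest score and 31.1 to 33.9 in the other 4. Pde5a (0.25), Adcy6 (0.23), Adcy2 (0.18) and Pde4a (0.15) also rose with it, and the mean levels of all 5 were higher in PFC sham than in NAc sham. Pde7b (-0.17) and Pde8b (-0.14), both high in NAc, fell. Medium spiny markers moved the other way from the cortical score. Their score was -0.40, -0.21 and 0.01 in the 3 libraries of highest cortical score (SNI 7, sham 6 and sham 4) and 0.16, 0.27 and 0.11 in the 3 of lowest (sham 5, SNI 12 and sham 1). NAc sham 4, with the highest Pde5a of NAc (1.295 RPKM), also had the highest endothelial (0.59) and fibroblast (1.84) scores. Without it the Pde5a coefficient was 0.22 (limma adjusted p = 0.0330). The part of these markers in the coefficients was not tested. The coefficients of Adcy5 (-0.21, limma adjusted p = 0.0721) and Pde1b (-0.15, 0.0989) were not called.

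The result rested in part on single libraries. Adcy1 and Adcy6 were called in each of the 12 fits without 1 library. The count was 4 without NAc sham 1, 3 without NAc sham 5 and 4 without NAc SNI 7. Without the 2 libraries of lowest score, an alternative added after the data were seen, it was 3, Adcy1, Adcy6 and Pde4a. Shares of all genes called in these reduced fits are not given here. The part of the cortical markers in the other NAc values was not tested beyond a fit with the score as a covariate, in which SNI changed 0 of 28 members.

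**Figure D5:**
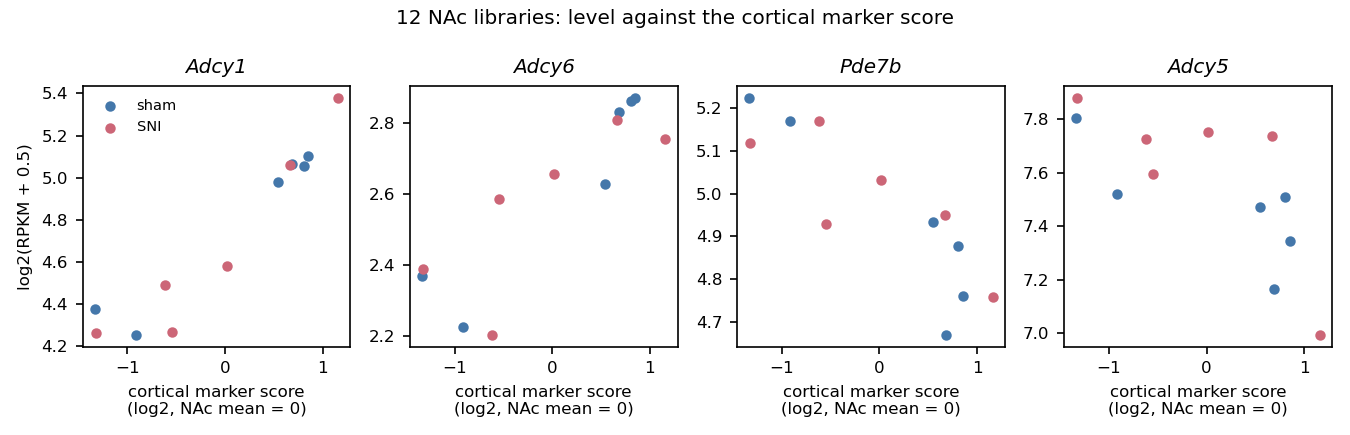
Level of 4 members as log2(RPKM + 0.5) against the cortical marker score (log2, NAc mean 0) in the 12 NAc libraries, blue for sham and red for SNI. Adcy1 and Adcy6 are higher and Pde7b is lower in libraries of high score, with both surgery groups along the same range, and Adcy5 was not called.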

How the data were processed

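Polyadenylated RNA was sequenced in 36 libraries of 3 mouse brain regions, with 6 libraries in each of 6 groups. The authors deposited RPKM values per gene, with a gene length. TopHat2, HTSeq and mm10 appear in the submitters' processing notes; for their roles, settings, versions and strand use, the sources used here give nothing. Overlapping genes (Adcy3, Adcy8, Pde2a and Pde10a among the members) may share reads. Whole reads could be recovered from 100% of the deposited RPKM (tolerance 0.001), with depths of 27.6 to 64.9 M reads. No libraries of a group were copies of each other: chi-square divided by its degrees of freedom was at least 3.89 over 90 pairs.

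The tests used limma 3.58.1 under R 4.3.3, with a mean-variance trend, on log2(RPKM + 0.5) for genes whose mean reached 0.5 RPKM, with Benjamini-Hochberg adjustment over all genes, two-sided, at 0.05. This scale understates folds of low genes. SNI comparisons used the 12 libraries of a region; region contrasts and differences of SNI effects used 1 model of 36. The pipeline was tested on simulated data. The rule was name-based; the members and gene lists were chosen with earlier results of these data known. Annotation came from GENCODE M21 (97.9% of identifiers matched) and promoters from RefSeq (GRCm38.p6). Named genes were, per region comparison, up to 8 members past the call rule by fold, per SNI comparison up to 6 per direction, or the 4 of smallest p where none passed, and per list up to 4 called genes.

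Alternatives were other pseudocounts (0.1 and 1), filters (none and 2 RPKM), scalings, array weights, voom on the recovered reads, GC corrections, covariates and each library left out. The test against the myelin score in PFC was added after the data were seen.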

Additional observations from a re-analysis of the deposited data

Results flagged for a closer look

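In 11 of 168 groups of a member (6.55%), the highest or lowest of 6 libraries lay far from the others by Dixon's criterion, and chance alone gives about 1 in 20. Library PFC SNI 24 held 3 of these: Pde10a at 13 RPKM (others 6.41 to 8.49), Pde1b at 56.5 (44.3 to 48.2) and Adcy4 at 1.39 (0.890 to 1.06). Its medium spiny marker sum was also the highest of the region, at 74.0 RPKM. Library NAc SNI 7 held 2, Pde5a at 0.969 RPKM (0.520 to 0.624) and Pde8a at 7.16 (5.36 to 5.96), and had the highest cortical marker score of NAc, 1.16. In PAG, Adcy4 measured 2.77 RPKM in SNI 36 (1.34 to 1.64), Adcy1 11.8 in SNI 33 (14.7 to 16.1), Adcy8 12.4 in SNI 31 (10.9 to 11.4) and Adcy5 20.1 in sham 28 (22.7 to 24). Adcy2 measured 72.9 RPKM in PFC sham 13 (60.5 to 64.6), and Pde1a measured 44.5 in NAc sham 2 (35.8 to 38.1). Library PAG SNI 31 also had the highest choroid plexus and ependymal marker sum of PAG SNI, 389 RPKM. Their causes were not tested.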

How the results depend on the processing

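The call counts for regions stayed within 1.5 times under other pseudocounts, filters, scalings, weights, voom and GC corrections. With no fold minimum they were 25 (NAc and PFC), 20 (NAc and PAG) and 22 (PFC and PAG) in sham and 26, 22 and 23 in SNI libraries. Leaving out 1 library gave 10 to 13, 10 to 11 and 6 to 6 in sham and 10 to 14, 11 to 12 and 5 to 6 in SNI libraries, 0 to 0 for SNI in NAc and in PFC and for the 3 differences of SNI effects, and 9 to 12 for SNI in PAG. Array weights called 3 members for the difference of SNI effects between PFC and PAG. For SNI in PAG, 14 were called with quantile scaling, 4 after the GC loess, 0 with the GC slope as covariate, 0 with the gene-specific coefficient removed, 5 in the model of 36 libraries and 1 at an unadjusted p with a fold of 1.3. GC corrections reversed Adcy3 (-0.057 loess, -0.059 covariate, -0.043 gene-specific), Adcy5 (-0.11, -0.080, -0.087), Adcy2 (0.022 covariate, 0.039 gene-specific), Adcy4 (-0.19 covariate) and Pde4a (-0.048 covariate). The cortical score gave 11 members after the GC loess, 3 to 8 without 1 library and 3 without the 2 libraries of lowest score. The added myelin score called 2 members with array weights, 2 with voom, 2 after the GC loess and 1 to 2 without 1 library. Except where stated above, shares of all genes under these alternatives are not given here, so these counts do not set members apart. Causes were not tested. No paired analysis was possible because libraries are numbered 1 to 36 and no groups share a number. Pooled RNA hides variation between mice, and low members such as Pde6c rest on few reads.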
